A study of Mus musculus with 3 samples.

Results

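MHC class I molecules carry short peptides from inside a cell to its surface, where cytotoxic T cells read them. The genes described here supply those peptides and the light chain of the complex. They are B2m, Tap1, Tap2, Tapbp, Psmb8, Psmb9, Psmb10, Psme1, Psme2 and Erap1, found in the array annotation by symbol, current name or synonym. Of these 10 genes, 9 had a row, each with 1 probe and a value on all 3 arrays, among 10179 named genes so measured. Erap1 was listed under its older symbol Arts1. Psme2 has no named row and is not analysed here, and neither are the class I heavy chains, since 0 of 18 heavy chain genes looked for (H2-K1, H2-D1 and others) carried a name.

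The livers came from female C57BL/6 mice, wild-type or TMX-/- (TMX-null), untreated or taken 24 h after an intraperitoneal dose of 3 ng lipopolysaccharide (LPS) with 10 mg D-(+)-galactosamine (GalN). TMX, encoded by Tmx1, is a thioredoxin-like membrane protein of the endoplasmic reticulum (ER) that can bind class I heavy chains. GalN sensitises hepatocytes to LPS, and mice given both develop acute hepatitis. Each of the 3 arrays carried 1 liver RNA in the Cy3 channel (treated wild-type, untreated TMX-null or treated TMX-null) against untreated wild-type liver in Cy5. The age of the mice, the part of Tmx1 that was removed, and whether 1 mouse or a pool gave each RNA are unknown here. Every group has 1 array, so no difference was tested against the variation between mice, and all statements describe these 3 hybridisations. Since the tissue is whole liver, fewer cells of a type and less RNA per cell cannot be told apart.

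Values are the authors' deposited log ratios, read as log2, after each array was centred on its median over the 10179 genes. The labels do not state the numerator. Liver over untreated wild-type reference is taken as likely because Tmx1 stood at -2.96 and -3.88 in untreated and treated TMX-null liver and at 0.59 in treated wild-type liver, and with the opposite numerator every higher below would read lower. If the logarithm were natural, each fold would be raised to the power 1.44. The only measure of error is the SD of a single probe, from 81 genes with 2 probes. It was 0.42 in treated wild-type, 0.42 in untreated TMX-null and 0.76 in treated TMX-null liver, and it leaves out differences between mice.

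In the pathway, proteasomes cut cytosolic proteins into peptides. Interferon-gamma makes cells replace the catalytic subunits of the constitutive proteasome with Psmb8, Psmb9 and Psmb10, which form the immunoproteasome, and induces Psme1 and Psme2, the subunits of the activator PA28. Tap1 and Tap2 pump the peptides into the ER, Erap1 trims them there, and tapasin (Tapbp) holds the empty class I molecule at the transporter until a peptide fits. B2m, beta-2-microglobulin, is the small subunit that every class I heavy chain needs to leave the ER. In liver, hepatocytes make little class I at rest, and endothelial and immune cells make more.

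The upstream sequence of B2m is shown because B2m alone of the members was beyond the single-probe SD on all 3 arrays. This choice rests on its values. The stretch between Psmb9 and Tap1 is shown because these neighbouring members start from the same short region. In the RefSeq annotation of GRCm38.p6 the protein-coding genes Psmb9, Tap1, Psmb8 and Tap2 follow each other in that order. The 225 bases between the starts of Psmb9 and Tap1 lie at chr17:34187331-34187555 and are given on the plus strand, the strand of Tap1. The 250 bases before the B2m start lie at chr2:122147437-122147686, plus strand. Capitals mark matches, on either strand, to GAAA, any 2 bases, GAAA (an interferon-stimulated response element core), to TTC, any 3 bases, GAA (a STAT or GAS site), to GGGA, any base, TTTCC (a form of NF-kB site) and to CCAAT.
B2m: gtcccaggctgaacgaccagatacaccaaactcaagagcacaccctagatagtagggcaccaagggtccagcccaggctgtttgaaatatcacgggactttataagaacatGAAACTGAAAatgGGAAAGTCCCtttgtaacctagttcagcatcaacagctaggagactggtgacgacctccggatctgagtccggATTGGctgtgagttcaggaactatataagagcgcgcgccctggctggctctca
Psmb9 to Tap1: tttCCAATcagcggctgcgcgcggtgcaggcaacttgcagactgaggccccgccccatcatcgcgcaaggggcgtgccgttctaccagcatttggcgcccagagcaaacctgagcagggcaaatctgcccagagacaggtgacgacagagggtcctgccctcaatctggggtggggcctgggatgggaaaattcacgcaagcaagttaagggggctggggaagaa

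Promoter windows of 300 bases, from 250 before to 50 after a start, were in the RefSeq table for 9 member genes, Psme2 included and Tap2 not. The interferon-type pattern was found in 3 of these 9 genes (B2m, Psme1 and Erap1), against 3.99% of 27025 genes with such a window. The STAT pattern was found in Psmb8 alone among the 9, against 9.55% of genes. The NF-kB-type pattern was found in B2m alone, against 0.466%, and CCAAT in 4 genes (B2m, Tap1, Tapbp and Psmb9), against 41.1%. The windows of Tap1 and Psmb9 share 275 bases, and their CCAAT match is the same site read from both sides. In B2m the interferon-type match starts at position -139 and the NF-kB-type match at -126 from the transcript start, without overlap. A match is a description of letters, and no binding was measured.

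The remaining matches to the interferon and STAT patterns are shown with flanking bases, all on the plus strand of GRCm38.p6, to set them beside the ratios of their genes. Erap1 is at chr13:74639839-74639868, Psme1 at chr14:55578493-55578522 and Psmb8 at chr17:34198088-34198117.
Erap1: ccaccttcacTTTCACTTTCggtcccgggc
Psme1: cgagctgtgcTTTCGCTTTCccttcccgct
Psmb8: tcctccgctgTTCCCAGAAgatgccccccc

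Few members were 2-fold away from the reference, and the counts are read beside the share of all genes. None of the 9 was 2-fold away (a log2 ratio of 1 either way) in treated wild-type liver, where 4.55% of all genes were (2.8% higher and 1.75% lower), and none in untreated TMX-null liver, where 2.61% were (1.78% higher and 0.835% lower). In treated TMX-null liver 1 of 9 was, B2m on the lower side, against 26.8% of all genes (13.6% higher and 13.2% lower). Compared with the SD of a single probe, 4 of 9 members (B2m, Tap2, Psmb8 and Erap1) were beyond it in treated wild-type liver, against 31.8% of genes. In untreated TMX-null liver 2 of 9 (B2m and Tap1) were beyond it, against 24.8%, and in treated TMX-null liver the same pair, against 38.8%. The median size of a member's log2 ratio, sign ignored, was 0.41, 0.21 and 0.38 in treated wild-type, untreated TMX-null and treated TMX-null liver, beside 0.28, 0.24 and 0.59 over all genes. By this measure the members were nearer to the reference than the median gene in treated TMX-null liver and farther from it in treated wild-type liver.

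**Figure D1:**
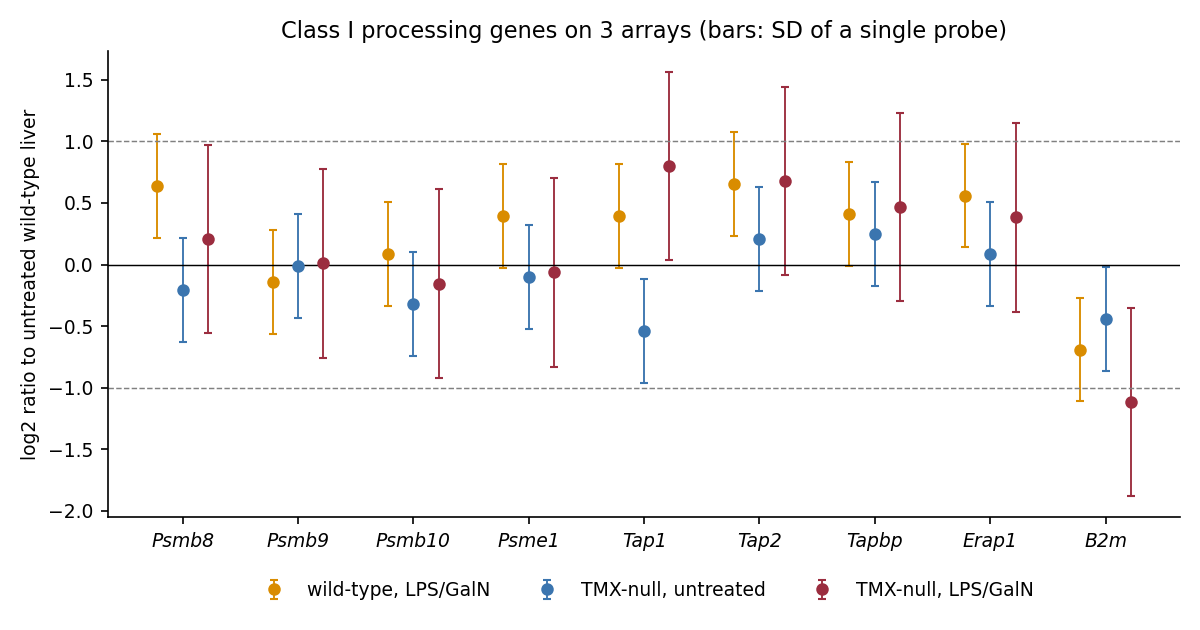
Log2 ratio to untreated wild-type liver of the 9 measured genes on 3 arrays (orange, treated wild-type; blue, untreated TMX-null; red, treated TMX-null), 1 probe each, with bars of 1 single-probe SD and dashed lines at 2-fold. B2m lies below 0 on all 3 arrays and reaches -1.12, while the genes that supply peptides lie between -0.54 and 0.80. That lowest value is in treated TMX-null liver and becomes -0.69 with arrays scaled to the same SD.

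Of the immunoproteasome subunits, none was 2-fold away in any liver. Psmb8, the chymotrypsin-like subunit, stood at 0.64 in treated wild-type, -0.20 in untreated TMX-null and 0.21 in treated TMX-null liver. It was thus the highest immunoproteasome subunit in both treated livers. Psmb9 stood at -0.14, -0.02 and 0.01 in the same order, within 1 single-probe SD of 0 throughout. Psmb10 stood at 0.09, -0.32 and -0.15. No subunit of the 3 exceeded 1.56-fold in any liver, and Psmb8 in treated wild-type liver was the only one beyond the single-probe SD. The sign of Psmb10 in treated wild-type liver and those of Psmb8 and Psmb9 in treated TMX-null liver depended on how the arrays were centred.

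Their constitutive counterparts, Psmb5, Psmb6 and Psmb7, which hold the same places in the standard proteasome, were set beside them. Psmb5 stood at 0.28, 0.00 and 0.31 in treated wild-type, untreated TMX-null and treated TMX-null liver. Psmb6, the counterpart of Psmb9, stood at 0.68, 0.30 and 0.53, so that Psmb9 minus Psmb6 was -0.82, -0.31 and -0.52. Psmb7 stood at 0.12, -0.18 and -0.29. Psmb8 minus Psmb5 was 0.35, -0.21 and -0.10, and Psmb10 minus Psmb7 was -0.03, -0.14 and 0.14. A difference between the ratios of 2 single probes has an SD of 0.60, 0.60 and 1.08 in these livers, and of the 9 pair values only Psmb9 minus Psmb6 in treated wild-type liver exceeded it.

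Psme1, the alpha subunit of PA28, stood at 0.40 in treated wild-type, -0.10 in untreated TMX-null and -0.06 in treated TMX-null liver. Each value was within the single-probe SD. Psme4, which caps the same core particle in place of PA28, stood at -0.31, -0.35 and -0.51. Psme1 minus Psme4 was 0.70, 0.25 and 0.44, beyond the SD of such a difference in treated wild-type liver alone. Around them, the other 9 measured core particle subunits had medians of 0.26, -0.04 and 0.21, with 0 of 9 at 2-fold in any of these livers. The 21 genes listed for the regulatory particle, which recognises ubiquitinated proteins, had medians of 0.20, 0.00 and 0.54. In treated TMX-null liver 1 of 21, Psmd8, was 2-fold higher (1.27), against 13.6% of all genes. There, 19 of 21 were above 0, but with centring on housekeeping genes the median was 0.13, so this count rested on the centring. The 12 housekeeping genes measured were themselves spread from -0.96 (Sdha) to 2.02 (Actb) in that liver. Of them 4 were 2-fold higher and 0 lower, so they are not a fixed reference. Assembly factors, Pomp among them, had medians of 0.01 on each array.

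Both chains of the peptide transporter lay above the reference in both treated livers. Tap1 stood at 0.40 in treated wild-type, -0.54 in untreated TMX-null and 0.80 in treated TMX-null liver. It was the lowest member in the untreated and the highest in the treated TMX-null liver, at the 6.71 and the 81.5 percentile of all genes. Tap2 stood at 0.65, 0.21 and 0.68, above the reference in all 3 livers. With arrays scaled to the same SD its values in treated wild-type and treated TMX-null liver were 0.87 and 0.42. The ratio of Tap1 minus that of Tap2 was -0.26, -0.75 and 0.12, so the chains were furthest apart in untreated TMX-null liver, where an SD of 0.60 applies. Psmb9, which starts next to Tap1 in the region printed above, differed from it by 0.54, -0.53 and 0.79 (Tap1 minus Psmb9), each within the SD of such a difference (0.60, 0.60 and 1.08).

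Tapbp, which bridges transporter and class I molecule, stood at 0.41 in treated wild-type, 0.25 in untreated TMX-null and 0.46 in treated TMX-null liver. Erap1, the ER aminopeptidase, stood at 0.56, 0.09 and 0.38. Like Tap2, these genes lay above the reference in all 3 livers, except that Erap1 in treated TMX-null liver turned to -0.03 with centring on housekeeping genes. The value of Erap1 in treated wild-type liver was the only one of theirs beyond the single-probe SD. Of 7 other peptidases that trim or destroy class I peptides, 0 were 2-fold away on any array. Npepps, a cytosolic aminopeptidase, was the highest of them in treated TMX-null liver (0.98) and Lap3, leucine aminopeptidase, the lowest (-0.92).

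B2m was lower than in the reference on all 3 arrays. It stood at -0.69 in treated wild-type liver, -0.44 in untreated TMX-null liver and -1.12 in treated TMX-null liver, which are 1.61-fold, 1.36-fold and 2.17-fold lower. These values placed it at the 5.30, 10.8 and 11.02 percentile of all genes, in the lower tail of each array. Each ratio was beyond the single-probe SD (0.42, 0.42 and 0.76). All 3 arrays share the reference and the dye orientation, so 3 low livers and 1 high reference, or a dye effect of this probe, cannot be told apart. The SD over genes was 0.48 in treated wild-type, 0.40 in untreated TMX-null and 1.04 in treated TMX-null liver. With arrays scaled to the same SD, B2m stood at -0.92, -0.70 and -0.69 in that order. Treated TMX-null liver was then inside 2-fold and no longer the lowest.

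**Figure D2:**
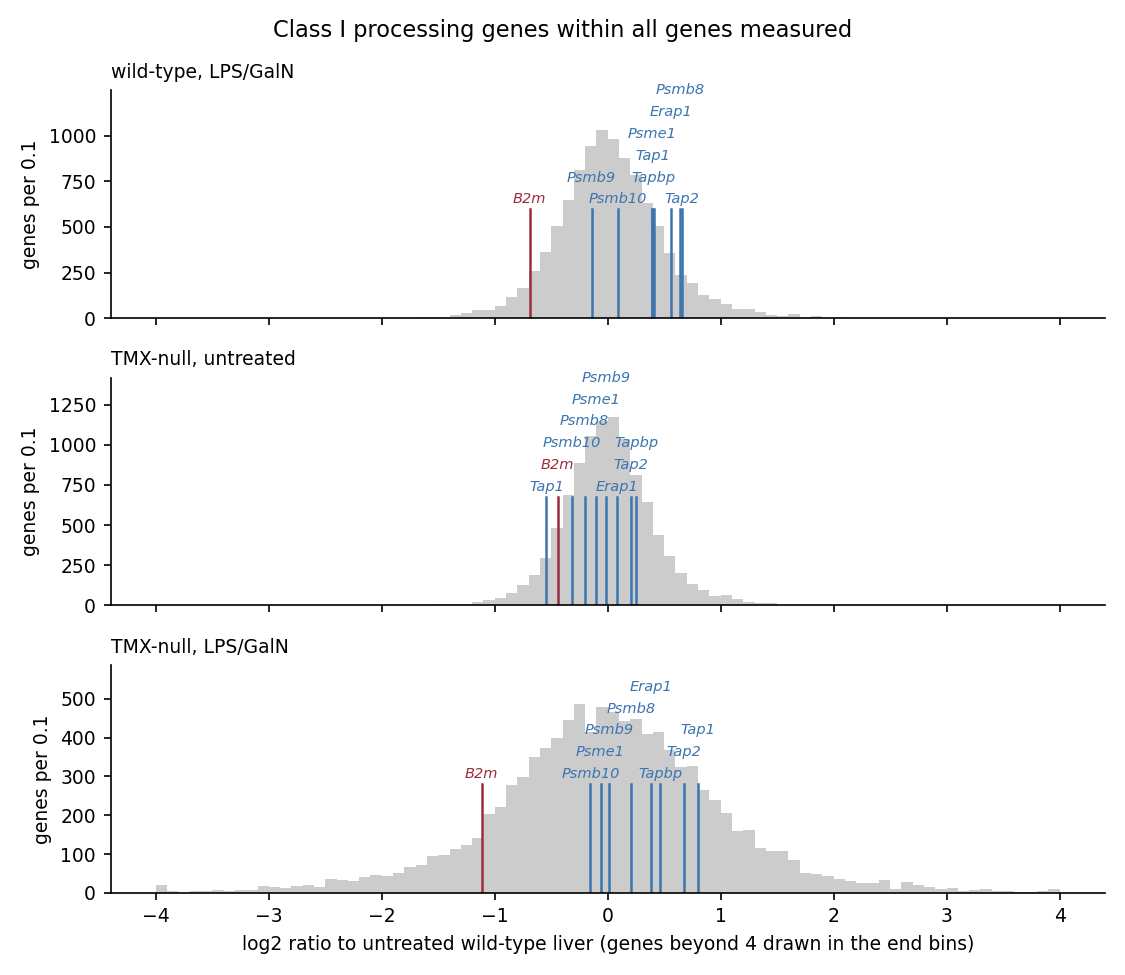
Histograms of log2 ratios to untreated wild-type liver of 10179 genes per array (x axis) as genes per bin (y axis), with a line for each measured class I processing gene (blue) and for B2m (red). B2m sits in the lower tail of each array, at the 5.30, 10.8 and 11.02 percentile, and in the treated livers the supply genes lie at the 36.0 percentile or above. In untreated TMX-null liver Tap1 (6.71), Psmb10 (18.0) and Psmb8 (27.9) lie in the lower part too.

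The members were chosen in order to compare B2m with the genes that supply peptides. In treated wild-type liver the 8 measured supply genes had a median of 0.40, with 7 of 8 above 0 and a range from -0.14 to 0.65, and all 8 lay above B2m. B2m minus that median was -1.09. In untreated TMX-null liver their median was -0.06, with 3 of 8 above 0, and B2m minus the median was -0.38. Tap1 was the only supply gene below B2m there. In treated TMX-null liver the median was 0.29, with 6 of 8 above 0 and a range from -0.15 to 0.80, and all 8 again lay above B2m, by 0.96 (Psmb10) to 1.91 (Tap1) log2. B2m minus the median was -1.41. The error of a difference from a median of 8 genes was not estimated.

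B2m had the lowest ratio of all members in both treated livers, and a transporter chain the highest. In treated wild-type liver it ran B2m, Psmb9, Psmb10, Tap1, Psme1, Tapbp, Erap1, Psmb8 and Tap2 from low to high. Between neighbours in that order no step reached the SD of a difference, and B2m stood 0.55 below Psmb9. In treated TMX-null liver it ran B2m, Psmb10, Psme1, Psmb9, Psmb8, Erap1, Tapbp, Tap2 and Tap1, and the step from B2m to Psmb10 was again the widest. In untreated TMX-null liver it ran Tap1, B2m, Psmb10, Psmb8, Psme1, Psmb9, Erap1, Tap2 and Tapbp, with all 9 genes between -0.54 and 0.25.

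Other proteins that pair with B2m were set beside it. Fcgrt, the neonatal Fc receptor that recycles albumin and IgG, stood at -0.17, -0.04 and -0.73 in treated wild-type, untreated TMX-null and treated TMX-null liver. Hfe, which regulates hepcidin, stood at 0.03, -0.02 and -0.45. Cd1d1, which presents lipids to NKT cells, stood at -0.11, 0.06 and -1.54 and was the only one of the 4 partners with all values at 2-fold on any array. Cd1d2, a close copy whose probe may not separate it from Cd1d1, stood at -0.17, -0.47 and -0.64. Their median was -0.14, -0.03 and -0.69. In treated TMX-null liver 4 of 4 lay below 0, as B2m did, where centring places 50% of all genes above 0. Of these 4, Cd1d1 alone was beyond the single-probe SD of 0.76. Mr1, which presents vitamin metabolites, was blank in untreated TMX-null liver and stood at -0.43 and -0.57 in the treated livers.

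The ER partners that fold and load class I had mixed ratios. Pdia3 (ERp57), which is bound to tapasin in the loading complex, stood at 0.70, 0.53 and 0.28 in treated wild-type, untreated TMX-null and treated TMX-null liver. Calr, the lectin chaperone of the same complex, stood at 0.11, -0.34 and -0.61, and Canx, which holds the free heavy chain, at 0.33, 0.15 and -0.26. Uggt1, which returns misfolded glycoproteins to these lectins, stood at 0.70, 0.39 and 0.54. Tapbpl, a peptide editor outside the loading complex, stayed between -0.11 and 0.06. Other folding genes of the list were Hspa5 (0.80, 0.36 and 0.91), Ero1a (0.19, 0.38 and 0.96) and P4hb (-0.33, -0.08 and -0.78). Of the 9 genes of this list with values, Tmx1 alone was 2-fold away on any of the arrays.

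Differences between arrays remove the shared reference, provided it was the same preparation. Treated against untreated TMX-null liver gives the response to LPS/GalN without TMX. Here 1 of 9 members, Tap1, was 2-fold away at 1.34 (2.53-fold higher), against 23.5% of all genes (11.4% higher and 12.1% lower), and it stood at the 93.9 percentile. With centring on housekeeping genes Tap1 stood at 0.96, inside 2-fold, and B2m at -1.05, beyond it. The single-probe SD of this difference was 0.67, and 2 of 9 members, Tap1 and B2m, were beyond it, against 41% of genes. The other supply genes ranged from 0.02 (Psmb9) to 0.47 (Tap2), with Psmb8 at 0.41, Erap1 at 0.30, Tapbp at 0.21, Psmb10 at 0.17 and Psme1 at 0.04. B2m stood at -0.67. All 8 supply genes lay above 0, with a median of 0.26, but Tap1, Tap2 and Psmb8 alone kept that sign under every scaling and centring tried. With arrays scaled to the same SD, B2m stood at 0.01, so its direction in this comparison is not settled.

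**Figure D3:**
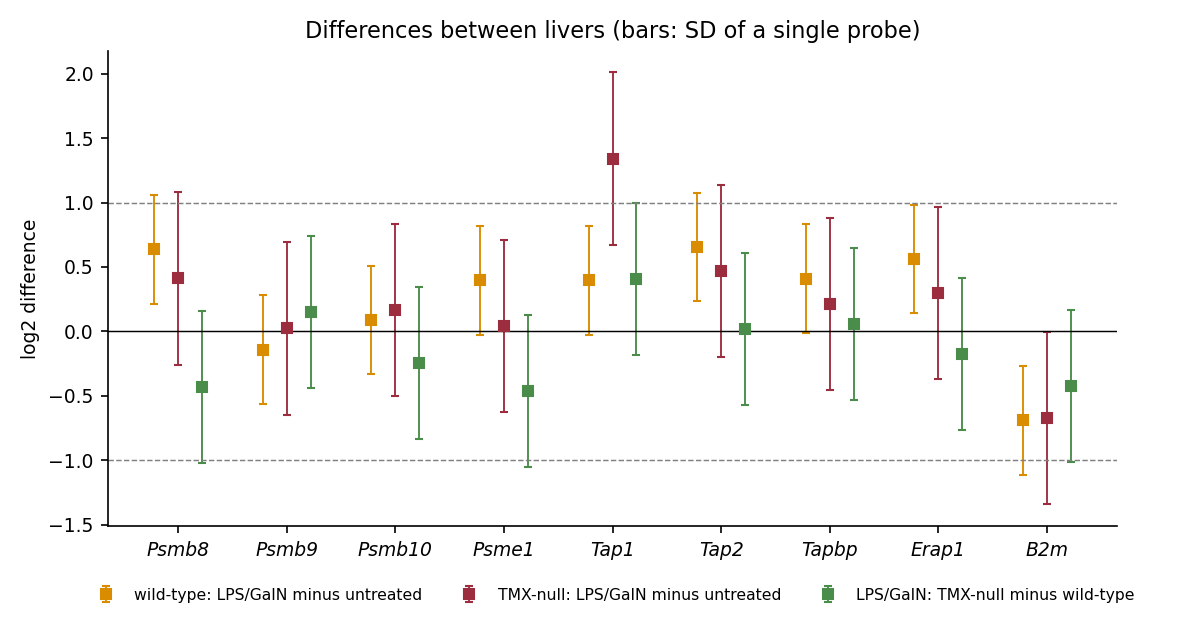
Log2 differences of the 9 measured genes for the response of wild-type liver (orange), the response of TMX-null liver (red) and treated TMX-null minus treated wild-type liver (green), with bars of 1 single-probe SD and dashed lines at 2-fold. Tap1 at 1.34 in the TMX-null response is the only point beyond 2-fold, and with centring on housekeeping genes it is 0.96.

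Tap1 was low in untreated TMX-null liver (-0.54), and that value enters the difference. Against untreated wild-type liver the treated TMX-null liver stood at 0.80, a 1.74-fold difference. The response of wild-type liver was 0.40, and the difference of the responses (TMX-null minus wild-type) was 0.95 for Tap1, beyond its single-probe SD of 0.65 but inside 2-fold. With this scaling it was the only member beyond that SD, where 39.3% of genes were, and 0 of 9 members differed 2-fold between responses, where 21.4% of genes did (9.82% higher and 11.6% lower). The remaining supply genes ranged from -0.36 (Psme1) to 0.17 (Psmb9) in this difference. B2m stood at 0.02, a value that rested on the scaling: it was 0.93 with arrays scaled to the same SD, 0.99 with quantile normalization and -0.20 with centring on housekeeping genes. Its direction between the genotypes is therefore not settled either.

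After LPS/GalN, TMX-null and wild-type liver differed by less than 2-fold in all 9 members, where 20.3% of genes differed by more (9.64% higher and 10.6% lower). No member was beyond the single-probe SD of 0.59, against 41.8% of genes. Tap1 stood at 0.40, Psmb9 at 0.15, Tapbp at 0.06 and Tap2 at 0.02 in TMX-null minus wild-type liver. On the lower side were Psme1 at -0.46, Psmb8 at -0.43, B2m at -0.43, Psmb10 at -0.24 and Erap1 at -0.18. Of these signs, those of Psme1, Psmb8, Psmb10 and Erap1 held under every scaling and centring, while those of Tap1, Tap2, Tapbp and Psmb9 did not, and that of B2m turned to 0.23 with arrays scaled to the same SD. The median size of a member's difference was 0.24, beside 0.48 over all genes.

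A list of other interferon-inducible genes, not split by type of interferon, was set beside the supply genes. Of 11 measured interferon-inducible GTPases and reporters, 6 were 2-fold higher and 0 lower in treated TMX-null liver, where 13.6% of all genes were 2-fold higher, with a median of 1.06. The antiviral gene Rsad2 stood at 3.05, the chemokine Cxcl10 at 2.88, Ifit3 at 2.32, Gbp2, an interferon-gamma-induced GTPase, at 1.73 and the ISG15 protease Usp18 at 1.66. Of the others, Gbp7 stood at 1.06, Irgm1 at 0.85, Gbp4 at 0.35, Cxcl9 at 0.35, Gbp6 at 0.05 and Iigp1 at -0.76. The 8 supply genes had a median of 0.29 in the same liver, with 0 of 8 at 2-fold, and that median turned to -0.12 with centring on housekeeping genes. In treated wild-type liver the interferon-inducible median was -0.37, and 0 of the 11 were 2-fold away, where 4.55% of all genes were. The supply median was 0.40 there, so it lay above the median of that list in this liver and below it in treated TMX-null liver. Single genes of the 2 sets overlapped in both livers. The list ranged from -0.70 (Ifit3) to 0.68 (Gbp2) in treated wild-type liver. In treated TMX-null liver it ranged from -0.76 (Iigp1) to 3.05 (Rsad2).

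**Figure D4:**
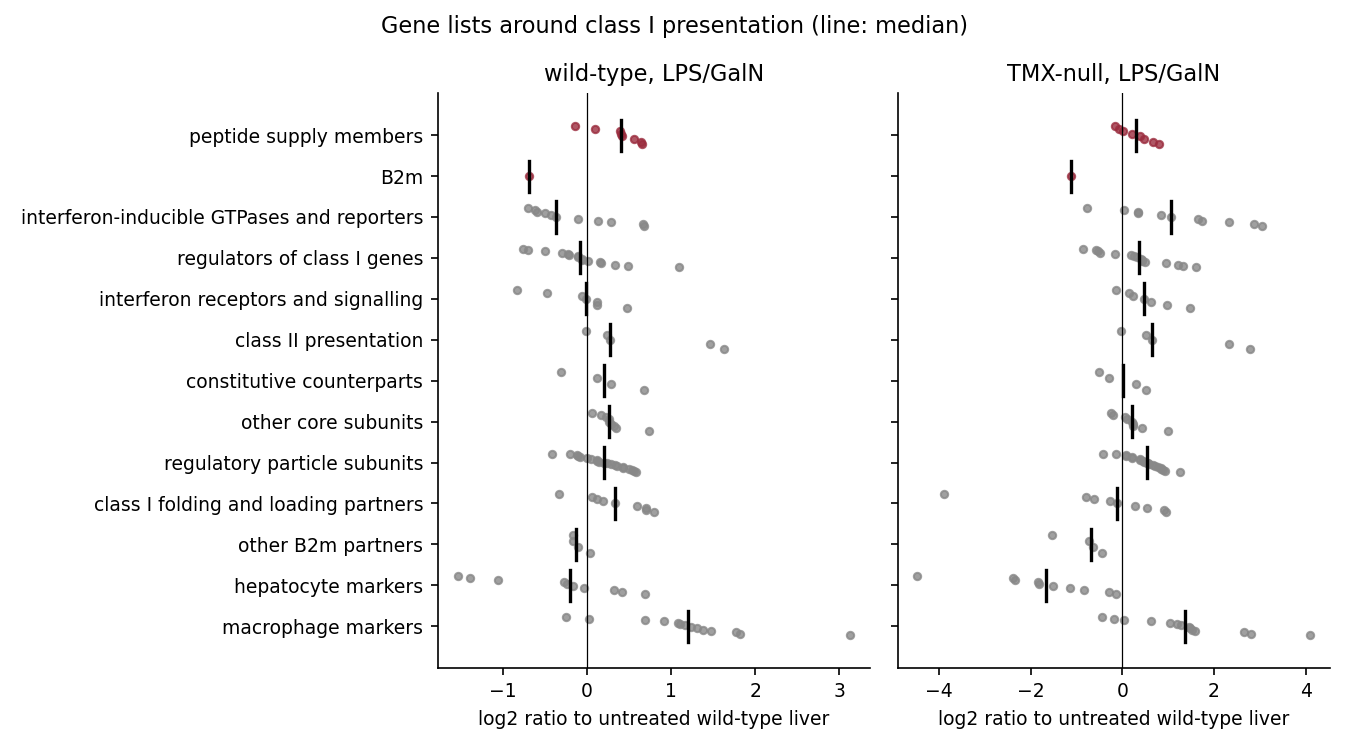
Log2 ratio to untreated wild-type liver (x axis) of each gene measured on all 3 arrays, by list (rows), in treated wild-type and treated TMX-null liver, with a black line at each median; the horizontal scales differ. The supply genes keep within -0.15 to 0.80 in both livers, while the interferon-inducible list moves from a median of -0.37 to 1.06.

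Regulators of class I transcription were also divided. Irf1, the main interferon-gamma-induced activator of these promoters, stood at 0.01, 0.00 and 0.20 in treated wild-type, untreated TMX-null and treated TMX-null liver. Nlrc5, the class I transactivator, was blank in treated wild-type liver and stood at -0.12 and 0.20 in the TMX-null livers. Irf8, a factor of myeloid cells, stood at 1.10, 0.15 and 1.61. Of 16 regulators with all values, 3 were 2-fold higher in treated TMX-null liver, where 13.6% of all genes were. They were Irf8, Socs1, a feedback inhibitor of JAK signalling (1.31), and the NF-kB subunit Nfkb1 (1.22). Irf7 stood there at 0.96, Irf9 at 0.49, Stat2 at 0.32, Stat3 at 0.41, Rela at 0.42, Irf3 at -0.52 and Irf2 at -0.86.

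Of the factors that assemble on the class I promoter at the X and Y boxes, Nfya alone was 2-fold away on an array. Rfxap stood at 0.17, 0.27 and 0.42, Rfxank at 0.33, 0.26 and 0.25, and Rfx5 at 0.49 and 0.19 with a blank in treated TMX-null liver. Nfyc, which with Nfya and Nfyb binds CCAAT, stood at -0.10, -0.28 and -0.17, and Nfyb at 0.15, 0.05 and -0.57. Nfya was 2-fold lower in untreated TMX-null liver (-1.13) and stood at -0.06 and -0.48 in treated wild-type and treated TMX-null liver. It was the only regulator 2-fold away in untreated TMX-null liver, where 2.61% of all genes were.

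Among receptors, Ifngr1, the ligand-binding chain for interferon-gamma, stood at 0.12, 0.31 and 1.48, and Ifngr2 at -0.48, 0.18 and 0.15. Ifnar2, of the type I receptor, stood at -0.84, -0.07 and 0.46. The gene of interferon-gamma, Ifng, had a value in treated TMX-null liver alone, at -0.20. Of the class II pathway, the endosomal enzymes stood higher than any class I gene. Of 5 with values, the endosomal protease Ctss stood at 1.62, 1.41 and 2.33 and the thiol reductase Ifi30 at 1.46, 0.87 and 2.78. H2-Aa, a class II chain, stood at 0.24, 0.11 and 0.66, its chaperone Cd74 at 0.27, -0.26 and 0.52, and Ciita at -0.02, 0.71 and -0.02.

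Cell type markers also differed from the reference. Hepatocyte markers had medians of -0.20, -0.38 and -1.66 in treated wild-type, untreated TMX-null and treated TMX-null liver. Of 10 genes, 3, 0 and 7 were 2-fold lower in the same order, where 1.75%, 0.835% and 13.2% of all genes were. The lowest was Cyp2e1 (-1.54, -0.96 and -4.47). Above 0 were 3, 3 and 0 of the 10, and the highest were Tat (0.68), Pck1 (0.36) and Apob (-0.14). Macrophage markers had medians of 1.19, 0.79 and 1.37. Of 14 genes, 10, 3 and 10 were 2-fold higher, where 2.8%, 1.78% and 13.6% of all genes were. The highest were Marco (3.13) in treated wild-type, Vsig4 (1.30) in untreated TMX-null and Marco (4.10) in treated TMX-null liver. Mrc1 was the lowest on each array (-0.26, -0.43 and -0.45). T and NK cell markers with all values had medians of 0.66, 0.73 and 1.36 over 6 genes, dendritic cell markers 0.10, 0.21 and 0.36 over 4, and B cell markers 0.07, -0.10 and 0.41 over 3. Monocyte and neutrophil markers stood at 0.26, -0.19 and 3.16 over 4 genes, with S100a9 at 4.45 and Ly6g at -2.50 in treated TMX-null liver. Sinusoidal endothelium markers stood at 0.06, 0.02 and 0.69 over 6 genes, stellate cell markers at 0.51, 0.18 and 0.82 over 5, and cholangiocyte markers at -0.14, -0.25 and 0.60 over 4. The part of these cells in the ratios of B2m and the supply genes was not tested.

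The genes whose 3 ratios lay closest to those of B2m, by Euclidean distance over 3 arrays and outside all lists, were Nbr1 (distance 0.06), Defb14 (0.06) and Zg16 (0.07). Closest to the median profile of the supply genes (0.40, -0.06 and 0.29) were Abl1 (0.04), Lgalsl (0.05) and Traf4 (0.06). With 3 values per gene and 10179 genes, near matches of this kind describe position only.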

How the data were processed

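Liver RNA was hybridised on 3 microarrays with 2 channels each. The values used are a single deposited table of log ratios, taken as log2. Its log base, numerator, normalization, background treatment and meaning of blanks were not stated in the labels, and base 2 is an assumption that the range of -6.40 to 8.04 allows. Of 23473 table rows, 16631 had 1 annotated symbol and 6842 none; 3947 symbols were updated through the RefSeq gene table of GRCm38.p6. Rows with a value on all 3 arrays were kept, probes of a gene averaged, and each array centred on its median over 10179 genes (-0.05, -0.03 and -0.07). No p-value was computed, since each group has 1 array. Genes were counted at 2-fold, and members against the SD of a single probe from 81 genes with 2 probes. The number of arrays limits the precision.

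All members were named with every value. From other lists the text names the extremes, genes at 2-fold, B2m partners, constitutive counterparts, regulators and loading partners, with other list genes chosen after their values were seen. The 3 genes closest to a profile were taken by Euclidean distance. Members and lists were chosen with earlier results of these data known. Alternatives covered centring, scaling, quantile normalization, the probe taken, the genes kept and a 1.5-fold threshold. Python 3.11.15, pandas 2.3.3 and NumPy 2.4.6 were used, and the steps were tested on simulated data.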

Additional observations from a re-analysis of the deposited data

Results flagged for a closer look

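Psmb9 had responses to LPS/GalN of opposite sign in the genotypes, -0.14 in wild-type and 0.024 in TMX-null liver. Both lie within the single-probe SDs (0.42 and 0.67), and the difference was not tested. Opposite signs were found for 1 of 9 members and for 36.5% of all genes, and the sign of Psmb9 in TMX-null liver turned under some centrings.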

How the results depend on the processing

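Of 324 values of single members under alternatives, 318 moved by less than the single-probe SD and 6, all of B2m, by more. No member 2-fold away changed sign. Many of these values could hardly move, so the 318 are a weak measure of stability. Each member has 1 probe, which leaves no choice of probe, and leaving out the centring shifted the arrays by only -0.05, -0.03 and -0.07. Scaling the arrays to the same SD, or quantile normalization, took B2m in treated TMX-null liver inside 2-fold, leaving 0 members there in place of 1. The same settings moved B2m minus the supply median from -0.93 to -0.10 and -0.10 in treated against untreated TMX-null liver, from -0.35 to 0.58 and 0.62 between the treated livers, and from 0.21 to 1.33 and 1.38 in the difference of the responses. Within arrays, B2m minus the supply median was -1.50 to -1.09 in treated wild-type, -0.61 to -0.38 in untreated TMX-null and -1.41 to -0.87 in treated TMX-null liver. Its sign could not change there, because every setting kept the order of these genes within an array. At 1.5-fold, 3 members counted in treated wild-type liver, where 18% of all genes did. In treated TMX-null liver 3 members also counted, but there 50.5% of all genes did. In treated against untreated TMX-null liver 2 members counted, against 46.8% of genes, and in the difference of the responses 1, against 43.9%. The 12 housekeeping genes measured were not steady themselves. Of them 4 were 2-fold higher in treated TMX-null liver, against 13.6% of all genes. In treated against untreated TMX-null liver 5 were, against 11.4%, and 0 were 2-fold lower in either. Centring on housekeeping genes lowered the median of all genes by 0.16 (wild-type, treated) and 0.41 (TMX-null, treated). It made B2m (-1.05), not Tap1 (0.96), the member at 2-fold in treated against untreated TMX-null liver. The share of 2-fold genes that were higher then went from 61.6% to 36.2% (wild-type, treated), 50.6% to 22.2% (TMX-null, treated), 48.5% to 20.8% (treated against untreated TMX-null), 47.6% to 26.3% (between treated livers) and 46% to 27.6% (difference of the responses). For untreated TMX-null liver it went from 68% to 52.5% with quantile normalization, 56.6% with scaling and 83.8% with all genes on that array, and for wild-type liver to 76.7% with all genes. Scaling changed the genes at 2-fold from 4.55%, 2.61% and 26.8% on the arrays to 10%, 10.4% and 10.5%, and the cause was not tested. No paired analysis was possible because each group has 1 array. Without signal values, dim probes cannot be told from bright ones.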
